A study of Rattus norvegicus with 9 samples.

Results

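The uterus of rats given ovulation induction together with electroacupuncture was compared with the uterus of untreated rats, 3 arrays on each side, across all genes that a probe set with a single gene symbol could name. The comparison used 6 of the 9 arrays of the series: treatment arrays 31, 32 and 33 and control arrays 41, 42 and 43. After a filter on dim probe sets, 10973 genes were tested in it. The treatment rats were stimulated at the Guanyuan and Sanyinjiao points with electrical acupuncture, in sessions of 15 min on 7 successive days, and stimulation went on through induction. Induction itself consisted of PMSG (gonadotropin from the serum of pregnant mares; an intraperitoneal dose of 0.5 U for each rat), followed 48 h later by as much human chorionic gonadotropin (HCG). Control rats received nothing, and no sham stimulation is mentioned. The other 3 arrays, models 21, 22 and 23, came from rats given the induction alone. All rats were female, the study held 18 of them in groups of 6 after 7 days of acclimatization, and the labels name neither strain nor age nor cycle stage. Electroacupuncture without induction was not analysed here, so against untreated rats the effects of the needles and of the hormones cannot be told apart.

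PMSG acts like follicle-stimulating hormone and makes ovarian follicles grow, and HCG acts like luteinizing hormone and triggers ovulation and the formation of corpora lutea. The uterus then sees oestradiol from the follicles and afterwards progesterone from the corpora lutea. Oestradiol drives growth and secretion of the epithelium, whereas progesterone stops epithelial growth and prepares the stroma for an implanting embryo, the state called receptivity. The series title places the study in work on vascular endothelial growth factor (VEGF) and endometrial receptivity.

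Values below are log2(intensity + 16), here called log2 levels, and differences are treatment minus control on that scale. Adding 16 understates the change of dim genes. Intensities of different probe sets are not on a common scale, so levels are compared between arrays and never between genes. The filter threshold of an array lay at a log2 level of 4.96 to 5.01. The word passed means an adjusted p below 0.05 in limma, with Benjamini-Hochberg adjustment over all genes tested. Median intensities of the 9 arrays were 23.56 to 24.02.

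The 3 untreated arrays did not form a uniform group. Controls 41 and 42 correlated at r = 0.9889 across genes, whereas control 43 correlated with them at 0.9446 and 0.9594 and with model 21 at 0.9850 (a description across genes, which are not replicates). The pooled within-group SD was 0.357 in the controls, 0.189 for controls 41 and 42 alone and 0.187 in the treatment arrays. The 3' to 5' intensity ratio of beta-actin, a sign of RNA degradation, was 7.84 in control 43 and 5.07 to 7.00 in the other arrays, and its part in the results was not tested. The same ratio of GAPDH was 1.30 in control 43 and 1.10 to 1.39 over all arrays, and that of hexokinase was 1.82 in control 43 and highest in treatments 31 and 33, at 2.44 and 2.16, so these did not single out control 43. Of the 40 gene lists with at least 3 members tested, epithelial markers had the widest range among the controls: their mean deviation from the 9-array average was 1.51 and 1.11 in controls 41 and 42 and -0.44 in control 43. Results are therefore given with control 43 and, where it matters, without it. Of 8 genes that mark uterine identity, 6 were tested, and the ovary and oviduct list had 2 of 11 members tested, both between 4.76 and 5.15 in the 6 arrays, near the filter threshold.

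In treatment against control, 56 of 10973 genes passed (0.510%), 19 higher (0.173%) and 37 lower (0.337%). The groups did not overlap in any of these 56 genes, against 23.3% of all genes. The 56 were picked by p on these same arrays, so their lack of overlap was largely built in. At an unadjusted p under 0.05 there were 718 higher and 1187 lower genes, but this surplus of lower genes turned around under quantile normalization, to 1054 higher and 735 lower, and the calls then split into 27 higher and 28 lower. The median difference over all genes was -0.037. Without control 43, 720 genes passed (6.56%), 163 higher and 557 lower, and all 56 were among them.

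The count rested on single arrays to a large extent. It was 0 without treatment 33 (1574 genes at an unadjusted p under 0.05), 2 without treatment 31, 11 without treatment 32, 4 without control 41 and 5 without control 42. The genes tested were kept fixed in these fits, so model arrays bore on the count through the pooled spread. Leaving out model 22 gave 13 and leaving out model 23 gave 95. In none of these fits did any of the 56 genes change direction, which was fixed in advance because their groups did not overlap. Among these 9 reduced fits, 8 kept Sftpd past the threshold, 7 kept Rnpep and 6 kept Igfbp1. Adap2, Cyp26a1 and Prdx6 held in 5, and the other calls in fewer.

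**Figure D1:**
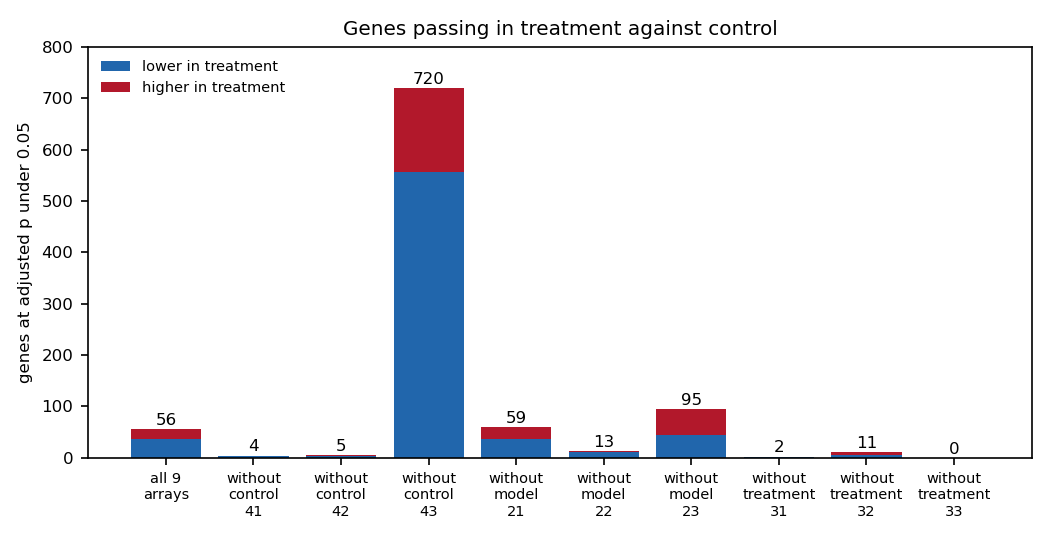
Bars show how many of the genes tested passed in treatment against control (y axis, genes at an adjusted p under 0.05, limma) with all 9 arrays and with each array left out in turn (x axis); blue parts are lower and red parts higher in treatment. The count was 56 with all arrays, 720 without control 43 and 0 without treatment 33.

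**Figure D2:**
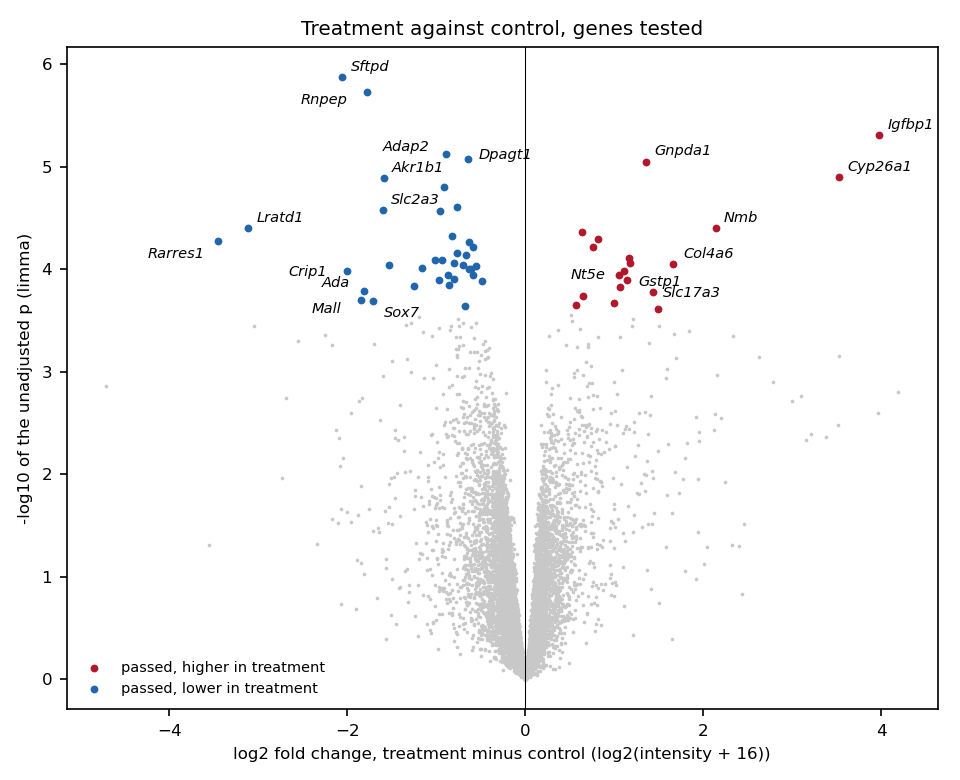
Each point is a gene, with the log2 fold change of treatment minus control on the x axis and -log10 of the unadjusted limma p on the y axis; red and blue points are the 19 higher and 37 lower genes that passed. Igfbp1 and Cyp26a1 lie farthest to the right among these, Rarres1 and Lratd1 farthest to the left, and Sftpd and Rnpep have the smallest p.

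The largest increases among the calls were in Igfbp1 and Cyp26a1, which encode secreted and intracellular proteins of hormone-prepared endometrium. Igfbp1 encodes insulin-like growth factor binding protein 1, a product of decidualizing stroma that binds insulin-like growth factors. Its log2 level was 8.52, 9.21 and 9.83 in treatments 31, 32 and 33 and 4.75, 5.06 and 5.83 in controls 41, 42 and 43. Every treatment array was above the highest control, which was control 43. The difference was 3.97 (SE 0.39, adjusted p = 0.0163), a 15.7-fold change on this scale, and 4.28 without control 43. Cyp26a1 encodes the retinoic acid hydroxylase, which clears retinoic acid and is itself induced by it. It measured 7.89, 7.49 and 8.68 against 4.54, 4.42 and 4.54, so the controls were tight and all below the filter threshold. Its difference was 3.52 (SE 0.39, adjusted p = 0.0176; 3.54 without control 43). With 64 or 1 added in place of 16 it was 2.13 or 5.003, and that of Igfbp1 was 2.88 or 4.76, so both sizes depended on the constant.

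The upstream sequences of these 2 genes are shown because the elements known to tie them to retinoic acid and to insulin signalling can be seen in them; they are the 250 bases before the annotated start from RefSeq, rat assembly GRCr8, 5′ to 3′ on the plus strand. Capitals mark the motif found in each.
Cyp26a1, chr1:244883572-244883821: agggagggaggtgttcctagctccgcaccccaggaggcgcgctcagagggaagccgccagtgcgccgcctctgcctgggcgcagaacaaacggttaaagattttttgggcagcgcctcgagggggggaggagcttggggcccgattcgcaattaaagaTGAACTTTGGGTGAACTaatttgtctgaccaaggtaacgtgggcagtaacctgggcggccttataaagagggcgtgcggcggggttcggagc
Igfbp1, chr14:86261027-86261276: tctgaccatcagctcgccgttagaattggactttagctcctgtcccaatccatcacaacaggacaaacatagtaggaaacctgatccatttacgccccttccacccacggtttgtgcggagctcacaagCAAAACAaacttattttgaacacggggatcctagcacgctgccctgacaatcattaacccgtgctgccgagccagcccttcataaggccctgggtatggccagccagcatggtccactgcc
In the Cyp26a1 window the capitals match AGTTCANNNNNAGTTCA, a direct repeat of the kind that retinoic acid receptors bind, on the opposite strand, 76 to 92 bases before the start. Searched on both strands, this motif was in 3 of 33469 windows of 250 bases (0.00896%). Other spellings of the repeated unit were not searched, so the count holds for these exact letters only. The capitals in the Igfbp1 window match CAAAACA, a core found in insulin response elements, 115 to 121 bases before the start. This short motif is common and was in 1826 of the 33469 windows (5.46%). Of the 56 genes that passed, 42 had a window in the table. The direct repeat was in 1 of these, Cyp26a1, and CAAAACA in 2, Igfbp1 and Gstp1. Both motifs were chosen for these genes with their changes known. A match describes letters only.

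Beside Igfbp1 and Cyp26a1, several higher genes encode signalling and matrix proteins. Nmb encodes neuromedin B, a peptide of the bombesin family, and measured 6.95, 7.41 and 7.28 in treatment and 4.78, 4.91 and 5.53 in control arrays. Its difference of 2.14 (SE 0.27, adjusted p = 0.0311) was 2.37 without control 43, the highest of the controls, and 1.26 or 2.88 with 64 or 1 added. Col4a6, a chain of basement membrane collagen IV, measured 7.32, 7.42 and 7.23 against 5.15, 5.96 and 5.89. The treatment arrays lay close together, and control 41 was the lowest (difference 1.66, adjusted p = 0.0311; 1.77 without control 43). A second Col4a6 probe set gave 1.187. Nt5e encodes the ectonucleotidase CD73, which makes adenosine outside the cell, and measured 7.80, 7.69 and 7.58 against 6.25, 6.92 and 6.56 (difference 1.11, adjusted p = 0.0311; 1.10 without control 43). Net1, an exchange factor that activates the small GTPase RhoA, measured 9.40, 9.57 and 9.58 against 8.48, 8.54 and 8.39. Its groups were both narrow and 1.05 apart (adjusted p = 0.0316), with 1.01 left without control 43.

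Higher enzymes included Gnpda1, which converts glucosamine-6-phosphate to fructose-6-phosphate. Its controls, 6.30, 6.36 and 6.34, lay close together and the treatment arrays measured 7.51, 7.74 and 7.81 (difference 1.36, SE 0.14, adjusted p = 0.0163; 1.36 without control 43). Pdha1, the catalytic alpha subunit that lets pyruvate dehydrogenase feed the citric acid cycle, measured 10.15, 10.09 and 10.29 against 9.18, 9.46 and 9.44 (0.82, adjusted p = 0.0311), and its second probe set gave 0.774. Gstp1 encodes a glutathione transferase that conjugates electrophiles. It measured 9.69, 10.07 and 10.13 against 8.58, 8.93 and 8.93, a difference of 1.15 (adjusted p = 0.0325; 1.21 without control 43). St3gal1 adds sialic acid to O-linked glycans, and its levels were 6.44, 6.61 and 6.50 against 5.23, 5.22 and 5.62 (1.16, adjusted p = 0.0311). Control 43 was the highest of its controls and did not reach the treatment arrays, and without it the difference was 1.30.

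Plscr2, a phospholipid scramblase gene, measured 6.91, 7.04 and 6.59 against 5.30, 5.79 and 4.99 (1.49, adjusted p = 0.0479; 1.31 without control 43). Kif12, which encodes a kinesin motor, measured 5.92, 6.22 and 6.24 against 4.91, 5.02 and 4.91 (1.18, adjusted p = 0.0311). Of its controls only control 42 reached the filter threshold, and with 64 or 1 added the difference was 0.580 or 1.785. Slc17a3, an organic anion and phosphate transporter gene, measured 5.53, 6.24 and 5.38 against 4.25, 4.27 and 4.34 (1.43, adjusted p = 0.0377). Treatment 32 was the highest of the Slc17a3 values, and all controls lay in the dim range below the filter threshold. So did the controls of Dnajb3, which encodes a co-chaperone (5.90, 5.47 and 6.04 against 4.71, 4.63 and 4.90; 1.06, adjusted p = 0.0346), and of Slc15a1, the peptide transporter PEPT1 (5.55, 5.59 and 6.06 against 4.66, 4.64 and 4.91; 0.996, adjusted p = 0.0444). Together with Cyp26a1, Tgm1 and Tm6sf2, these made 6 called genes below the threshold in every control. They entered the test through the arrays of the other groups, as did 83 genes in all, so a difference was built into their selection. With 64 or 1 added, the differences were 0.59 or 3.05 for Slc17a3, 0.48 or 1.79 for Dnajb3 and 0.44 or 1.72 for Slc15a1.

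The remaining higher genes changed less. Tgm1, a transglutaminase that cross-links proteins of cornified epithelium, differed by 0.77, and Ank3, the membrane adaptor ankyrin-G, by 0.64 (adjusted p = 0.0311 and 0.0399). A second Ank3 probe set gave 0.290. Tm6sf2, a membrane protein gene known for lipid export from liver cells, differed by 0.64 and Cdr2, a neural tumour antigen gene, by 0.57 (adjusted p = 0.0311 and 0.0454).

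**Figure D3:**
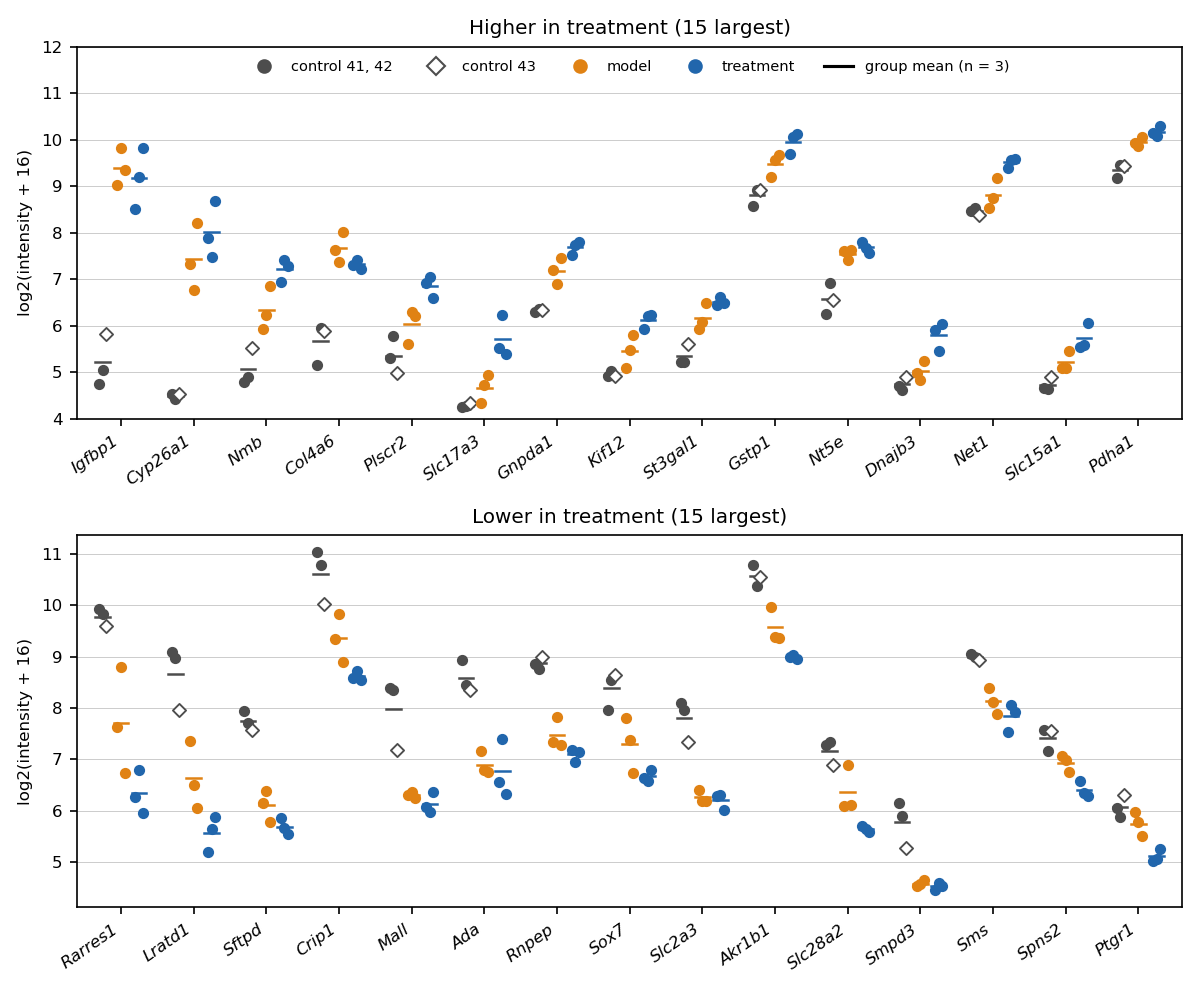
Points are the log2(intensity + 16) of single arrays (y axis) for the 15 largest higher and the 15 largest lower genes that passed (x axis), in grey for control, orange for model and blue for treatment, with an open diamond for control 43 and a bar at the mean of 3 arrays. Treatment and control arrays do not overlap in any of these genes. In 30 of all 56 calls control 43 lies nearer to the treatment arrays than controls 41 and 42, among them Lratd1, Crip1, Mall, Slc2a3 and Smpd3.

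The largest decreases were in Rarres1 and Lratd1. Rarres1 encodes a membrane protein induced by retinoids. It measured 6.27, 6.79 and 5.95 in treatments 31, 32 and 33 and 9.93, 9.83 and 9.60 in controls 41, 42 and 43, so the controls lay close together and every treatment array was far below them. The difference was -3.45 (SE 0.46, adjusted p = 0.0311), a 10.9-fold change, and -3.54 without control 43. Lratd1, a gene named for a domain shared with lecithin retinol acyltransferase, measured 5.19, 5.63 and 5.87 against 9.10, 8.97 and 7.95 (-3.11, SE 0.40, adjusted p = 0.0311). Control 43 was the lowest control and without it the difference was -3.47.

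Sftpd and Rnpep had the smallest p of all genes. Sftpd encodes surfactant protein D, a collectin that binds microbial sugars on mucosal surfaces, and measured 5.86, 5.65 and 5.55 against 7.95, 7.71 and 7.57 (-2.05, SE 0.17, adjusted p = 0.0101; -2.14 without control 43). Rnpep encodes aminopeptidase B, which removes basic residues from peptide ends. It measured 7.19, 6.95 and 7.15 against 8.86, 8.77 and 8.99, and here control 43 was the highest control (-1.78, SE 0.15, adjusted p = 0.0101; -1.72 without control 43).

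Genes of nucleoside handling and of carbohydrate and lipid metabolism were among the lower calls. Ada encodes adenosine deaminase, which removes adenosine, and measured 6.56, 7.40 and 6.33 against 8.94, 8.46 and 8.34 (-1.82, adjusted p = 0.0373; -1.93 without control 43). Treatment 32 was the nearest to the controls. Slc28a2, the sodium-driven transporter that takes purine nucleosides into cells, measured 5.70, 5.64 and 5.59 against 7.29, 7.34 and 6.88 (-1.53, adjusted p = 0.0311; -1.67 without control 43). Slc2a3 encodes the glucose transporter GLUT3. It measured 6.28, 6.30 and 6.02 against 8.10, 7.96 and 7.33, and the difference of -1.60 (adjusted p = 0.0246) grew to -1.83 without control 43. Akr1b1, aldose reductase, which also makes prostaglandin F2 alpha, measured 8.99, 9.03 and 8.95 against 10.79, 10.38 and 10.55 (-1.59, adjusted p = 0.0176). Its second, dimmer probe set gave 0.067 and did not fall with it, so the Akr1b1 call holds for 1 of 2 probe sets. Ptgr1, a reductase that inactivates prostaglandins and leukotriene B4, measured 5.01, 5.06 and 5.25 against 6.05, 5.88 and 6.30 (-0.97, adjusted p = 0.0325). Sms, spermine synthase, measured 7.53, 8.07 and 7.92 against 9.05, 8.99 and 8.94 (-1.16, adjusted p = 0.0311), and its second probe set gave -1.343.

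Lower lipid-signalling genes were Smpd3, Spns2 and Lpar1. Smpd3 encodes neutral sphingomyelinase, which releases ceramide, and fell to 4.45, 4.59 and 4.53 from 6.16, 5.90 and 5.27 (-1.25, adjusted p = 0.0346; -1.51 without control 43). Its 3 treatment arrays lay under the filter threshold, as did those of Ikzf2 and of 103 genes in all, so their differences were partly fixed by selection. Smpd3 was also under the threshold in all 3 model arrays and entered the test through the controls alone. With 64 or 1 added its difference was -0.55 or -2.30. Spns2, the exporter of sphingosine-1-phosphate, measured 6.57, 6.35 and 6.29 against 7.57, 7.16 and 7.55 (-1.02, adjusted p = 0.0311), with -0.393 from its second probe set. Lpar1, a receptor for lysophosphatidic acid, differed by -0.96 (adjusted p = 0.0246), with -0.740 from its second probe set. In both, the 2 probe sets moved the same way.

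Crip1, a small LIM-domain protein, measured 8.59, 8.72 and 8.55 against 11.04, 10.79 and 10.03 (-2.002, adjusted p = 0.0311; -2.30 without control 43). Mall encodes a proteolipid of membrane rafts in epithelial cells and measured 6.07, 5.98 and 6.36 against 8.39, 8.36 and 7.19 (-1.84, adjusted p = 0.0428). In both genes controls 41 and 42 were high and control 43 lay between them and the treatment arrays, and Mall differed by -2.24 without control 43. Sox7, a transcription factor of endothelial cells, measured 6.65, 6.58 and 6.80 against 7.95, 8.54 and 8.65 (-1.71, adjusted p = 0.0428). Here control 43 was the highest array, and without it the difference was -1.58.

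Lower calls under 1 in size encoded signalling, antioxidant and housekeeping proteins. Signalling and membrane genes were Syk, the spleen tyrosine kinase (-0.87), Card14, a scaffold that activates NF-kappaB (-0.94), Adap2, an Arf GTPase-activating protein (-0.89), Marcks, a substrate of protein kinase C (-0.77), Rasl10a, a Ras-like GTPase (-0.80), and Rai14, an actin-associated ankyrin-repeat protein (-0.67). The other 4 probe sets of Marcks gave -0.825, -0.741, -0.841 and -0.192. Sod1, superoxide dismutase, and Prdx6, a peroxiredoxin, differed by -0.63 and -0.91. Genes of protein modification and secretion were Tpst1, a tyrosine sulfotransferase (-0.82), Qsox1, a sulfhydryl oxidase that forms disulfides (-0.80), Dpagt1, which starts N-glycan synthesis (-0.65), Zdhhc2, a palmitoyltransferase (-0.76), and Sumo3, a ubiquitin-like modifier (-0.63). Qsox1 had a second probe set at -0.159 and Cnot6 at -0.480. Ion pump subunits were Atp1b3, of the sodium pump (-0.70), and Atp6v0e1, of the vacuolar proton pump (-0.49). Nuclear and RNA genes were Smarcal1, an annealing helicase (-0.67), Hexim1, an inhibitor of the elongation factor P-TEFb (-0.58), Ikzf2, the transcription factor Helios (-0.59), and Cnot6, a deadenylase (-0.55). Osgin2 (-0.61) and Tmem254 (-0.85) completed the 37. Adjusted p of these genes ran from 0.0163 for Adap2 to 0.0454 for Smarcal1.

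The model arrays give the side that separates electroacupuncture from induction. No gene passed in treatment against model (0 of 10973, 0%, limma; 1611 at an unadjusted p under 0.05). The comparisons of treatment and of model with control share the same 3 controls, so their values are set side by side only. In model against control 3 of the 56 genes passed, Igfbp1 (4.19), Sftpd (-1.64) and Rnpep (-1.39), where 0.0273% of all genes did. The model mean lay between the control and treatment means in 52 of the 56. In the other 4 it was beyond the treatment mean, and in 0 beyond the control mean. The 56 were picked for their distance from these same controls, so this order was partly built in. Igfbp1 measured 9.03, 9.83 and 9.35 in models 21, 22 and 23, which overlapped the treatment arrays (treatment minus model -0.22). Cyp26a1, at 7.32, 6.78 and 8.22, and Col4a6, at 7.63, 7.36 and 8.03, also overlapped them (treatment minus model 0.58 and -0.35).

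Some called genes were nearer to the control than to the treatment level in the model arrays. They were picked after their values were seen, as those of the 56 with the smallest p in treatment against model, and all had an adjusted p of 0.286 in it. Adap2 measured 6.87, 6.86 and 6.88 in model, 7.11, 6.96 and 7.01 in control and 6.25, 5.97 and 6.18 in treatment arrays, a treatment minus model difference of -0.74 (SE 0.09). Tm6sf2 measured 4.65, 4.51 and 4.68 in model, 4.52, 4.61 and 4.52 in control and 5.05, 5.17 and 5.35 in treatment arrays (0.58, SE 0.08). Adap2 did not overlap between the treatment arrays and the other 6. Tm6sf2 reached the filter in the treatment arrays alone, so its distance from both other groups was built into its selection. Net1 (0.70), Slc17a3 (1.05), Dnajb3 (0.78) and Tpst1 (-0.49) were the next, with model levels of 8.54 to 9.18, 4.35 to 4.93, 4.84 to 5.25 and 8.29 to 8.46. Slc17a3, like Tm6sf2, reached the filter in the treatment arrays alone, and Dnajb3 did so in those and 1 model array, so their differences were partly fixed by selection too.

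A further 664 genes passed only when control 43 was left out, 144 higher and 520 lower. In 56 of the 144 and 296 of the 520, control 43 was at or beyond the nearest treatment array. The genes were picked for passing only without control 43, so its distance from controls 41 and 42 was partly built into these counts. The largest of the higher ones was Spp1, osteopontin, a secreted ligand of endometrial integrins, at 11.58, 12.10 and 9.76 in treatment arrays and 6.51, 6.77 and 8.30 in controls 41, 42 and 43 (4.51, adjusted p = 0.0364 without control 43; 3.96, adjusted p = 0.118 with it). Lrp2, the endocytic receptor megalin, measured 8.88, 9.43 and 9.35 against 4.83, 5.07 and 8.13 (4.27, adjusted p = 0.00270 without; 3.21, 0.125 with). In both genes control 43 lay between the other controls and the treatment arrays. Mt2A, a metallothionein that binds zinc, measured 11.21, 11.56 and 11.30 against 8.78, 8.94 and 11.04, with control 43 almost at the treatment level (2.50 without; 1.77 with). Cyp2f4, a cytochrome P450, was low in all 3 controls (4.70, 4.79 and 4.70; treatment 7.92, 7.78 and 9.08; adjusted p = 0.0393 without control 43 and 0.0693 with it). The other higher genes taken by size were the growth factor gene Tgfb2 (3.05 without control 43), the leukocyte integrin gene Itgal (2.79), the proton pump subunit gene Atp6v0a4 (2.53), Selenbp1 (2.47), Sbspon (2.46), the borate transporter family gene Slc4a11 (2.45), the fatty acid carrier gene Fabp5 (2.22), Igfbp7 (2.07), Abi3bp (2.05), the inhibitor of differentiation gene Id4 (2.03) and the metallothionein gene Mt3 (1.85). With control 43 none of these 15 passed, and their differences were 0.85 (Mt3) to 3.96 (Spp1).

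Of the 15 largest lower genes of the same kind, 3 were members of the epithelial marker list, Elf3, Krt19 and Prom1. Lipf, a gastric lipase gene, measured 5.003, 6.29 and 5.01 in treatment arrays and 10.86 and 11.25 in controls 41 and 42, but 4.85 in control 43. Mmp7, matrilysin, a protease of epithelial glands, measured 5.61, 8.62 and 5.05 against 12.01, 11.89 and 9.50, with treatment 32 between the others and the controls. The differences were -5.63 and -5.53 without control 43 and -3.56 and -4.71 with it (adjusted p = 0.286 and 0.0962). Krt19, a keratin of simple epithelium, measured 8.07, 9.29 and 8.71 in treatment arrays, 12.01 and 11.58 in controls 41 and 42 and 7.48 in control 43, the lowest of these arrays. Elf3, an epithelial transcription factor, followed the same order (6.15, 6.88 and 6.26; 9.79 and 9.37; 5.78), and so did Cd55, a membrane inhibitor of complement (7.16, 7.23 and 7.82; 10.41 and 10.55; 6.78). Prom1, prominin of apical membranes, differed by -3.07 without control 43 and -2.55 with it (adjusted p = 0.0625), and Fxyd4, a sodium pump regulator, by -2.88 and -3.04 (adjusted p = 0.0568). Fxyd4 was high in control 43 as well (8.78, 7.43 and 8.60 against 5.08, 5.60 and 5.01). Without control 43 the differences of the other 8 were -3.86 for Fam3b, -3.53 for Sprr2d, a cornified envelope protein of a multigene family, -3.32 for Mfsd4a, -3.24 for Gch1, which starts tetrahydrobiopterin synthesis, -3.09 for PCOLCE2, -3.06 for Fam3d, -3.04 for Ceacam1, a cell adhesion molecule, and -3.02 for Krt12, a keratin. In 11 of the 15 lower genes control 43 was at or below the highest treatment array, against 2 of the 15 higher genes at or above the lowest. Both counts were partly fixed by the selection of genes that pass only without control 43.

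The epithelial marker list differed among the controls in the same order as most of these lower genes. Elf3, Krt19 and Prom1 belong to both, and the lower genes were picked for passing only without control 43. The likeness was therefore partly built in. The 11 members of the list were all tested, and 10 had a negative difference, where 57.8% of all genes did. With control 43, 0 members passed, where 0.337% of all genes passed as lower. Without control 43, 3 passed as lower, where 5.08% of all genes did. The median was -0.41 with and -1.05 without control 43. The list scores were -0.54, 0.04 and -0.09 in treatments 31, 32 and 33, against 1.51, 1.11 and -0.44 in controls 41, 42 and 43. Cldn4, a tight junction claudin, measured 5.08, 5.33 and 5.39 against 6.64, 5.99 and 7.23, highest in control 43, while Epcam, a pan-epithelial adhesion molecule, differed by -0.38 (adjusted p = 0.247). In bulk tissue, fewer cells of a type and less RNA per cell cannot be told apart. The part of epithelial content in the results was not tested.

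**Figure D4:**
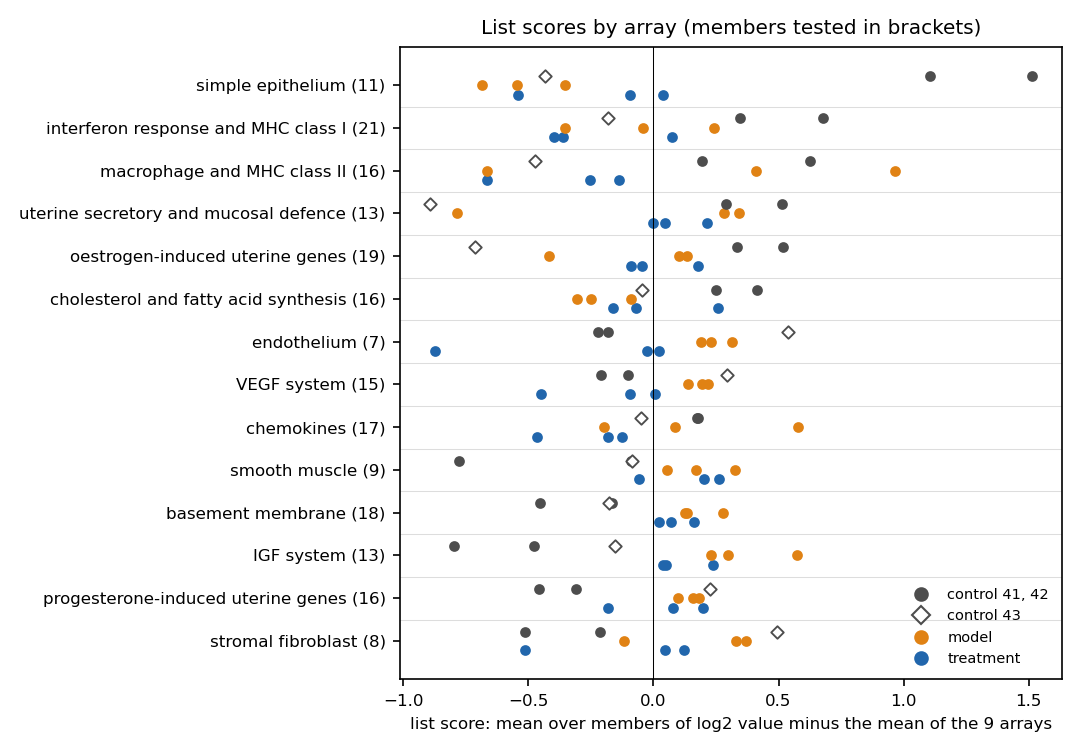
Each point is a list score of an array (x axis, the mean over members of the log2 level minus that gene's 9-array mean) for 14 of the gene lists (y axis, members tested in brackets), in grey for control, orange for model and blue for treatment, with an open diamond for control 43. Control 43 lies apart from controls 41 and 42 for simple epithelium, and treatment 32 is the lowest array for endothelium and the VEGF system.

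Gene lists of 31 pathways and 15 cell types were read by their counts. They were chosen with results of these data known, so a call in a list is a description and no evidence about that pathway. Of 545 list members tested, 17 passed, against 0.510% of all genes. Of the pathway lists, 14 held at least 1 of them and 17 held none, and no cell type list held any. For the counts that follow, 0.173% of all genes passed higher and 0.337% lower, 1.49% and 5.08% did so without control 43, and 6.54% were higher and 10.8% lower at an unadjusted p under 0.05. In the insulin-like growth factor list 1 of 13 tested members rose (0.173% of all genes) and 0 fell. Without control 43 the count was 5 rising (1.49% of all genes), of which Igfbp7 (1.84, adjusted p = 0.0582) and Igfbp6 (1.39, adjusted p = 0.0628) were nearest to passing with it, while Igfbp4 differed by -0.67. In others of the 5, control 43 lay within or above the treatment arrays, so their groups overlapped. In the retinoic acid list 1 of 19 rose, Cyp26a1, and 1 fell, Rarres1 (median -0.17, against -0.037 over all genes). Lrat, which esterifies retinol for storage, measured 10.15, 10.86 and 9.70 against 6.68, 6.74 and 6.76. All treatment arrays were above all controls, but the difference of 3.51 did not pass (adjusted p = 0.124). Stra6, the retinol uptake receptor, differed by -1.07 (adjusted p = 0.240).

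In the adenosine list, Nt5e rose and Ada fell of 14 tested, and neither Entpd1, which makes AMP from ATP (-0.21, adjusted p = 0.105), nor Adk, adenosine kinase (0.65, 0.131), passed. In the glucose and pyruvate list 2 of 25 rose (Gnpda1 and Pdha1) and 1 fell (Slc2a3), and the glycolytic enzyme gene Pgk1 differed by -0.50 (adjusted p = 0.174). In the glutathione and selenium list 1 of 24 rose (Gstp1) and 1 fell (Sod1), beside Cat, catalase (0.77, 0.118), and Gsta1 (0.80, 0.124). Of 18 basement membrane genes 1 rose (Col4a6) and 15 had a positive difference, where 42.2% of all genes did, with a median of 0.23. The laminin genes Lama5 (0.62, adjusted p = 0.118) and Lama4 (0.74, 0.133) and the collagen gene Col4a5 (1.03, 0.124) did not pass.

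Of 16 members of the sodium pump and epithelial transport list only Atp1b3 passed, and Atp1b1, another beta subunit of the pump, measured 9.54, 9.46 and 9.71 against 8.56, 8.72 and 8.32, opposite in sign (1.03, adjusted p = 0.106). Fxyd3, a pump regulator, differed by -1.83 (adjusted p = 0.108) and by -2.30 without control 43, where it passed. Of 13 polyamine and arginine genes Sms fell, and Sat1, which acetylates polyamines for export or breakdown, measured 8.73, 9.19 and 9.03 against 10.36, 10.44 and 10.01 (-1.28, adjusted p = 0.0568). Of 15 prostaglandin genes Akr1b1 fell, with prostacyclin synthase Ptgis at 0.69 (adjusted p = 0.0962). Of 13 neuropeptide genes Nmb rose, while galanin (Gal) at 6.78, 5.50 and 7.92 varied widely among treatment arrays (1.68, adjusted p = 0.171) and Ramp2, which partners the adrenomedullin receptor, differed by -0.69. Of 14 peptidase genes Rnpep fell, and carboxypeptidase M (Cpm) differed by 1.24 (adjusted p = 0.147). Of 13 secretory and mucosal defence genes Sftpd fell, next to Defb1, a defensin (1.12, 0.124), and Wfdc2 (-1.02, 0.223). Without control 43, 1 of the 13 passed as higher and 4 as lower, where 1.49% and 5.08% of all genes did. The median was -0.262 with control 43 and -1.170 without it. The list scores were 0.515, 0.289 and -0.892 in controls 41, 42 and 43, and 0.045, 0.213 and -0.003 in treatments 31, 32 and 33.

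Among 16 progesterone-induced genes 1 rose, Cyp26a1, where 0.173% of all genes did. Sgk1, a kinase of sodium transport, measured 8.73, 9.22 and 8.87 against 7.91, 7.63 and 7.63 (1.22, adjusted p = 0.124), and Tsc22d3, a glucocorticoid-induced regulator, differed by 0.50 (0.239). Among 19 oestrogen-induced genes 0 passed (1 higher and 2 lower at an unadjusted p under 0.05, against 6.54% and 10.8% of all genes), with Aqp5, a water channel, at 1.16 and Plac8 at -1.53 (adjusted p = 0.220 and 0.222). Without control 43, 1 passed as higher, Aqp5 (1.64), and 3 as lower, where 1.49% and 5.08% of all genes did. The list scores were 0.517, 0.335 and -0.712 in controls 41, 42 and 43, and -0.090, 0.180 and -0.046 in treatments 31, 32 and 33. Of 12 steroid receptor and enzyme genes 1 fell, Akr1b1, where 0.337% of all genes did. Hsd11b1, which regenerates active glucocorticoid, measured 9.86, 10.48 and 9.94 against 7.03, 7.03 and 6.07, a difference of 3.38 that did not pass (adjusted p = 0.126), and Sts, which frees steroids from sulfate, differed by 0.51 (0.108). Hsd11b2, which inactivates glucocorticoid, differed by 0.74 (0.246). The progesterone receptor gene Pgr measured 6.33, 6.46 and 6.36 against 6.96, 5.90 and 6.13 (0.06, adjusted p = 0.926), turning to -0.05 without control 43 and -0.16 without control 42, and the prolactin receptor gene Prlr measured 7.76, 7.06 and 8.20 against 7.14, 6.38 and 6.61 (0.97, 0.244). Esr1, the oestrogen receptor gene, was below the filter and not tested.

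Of 26 decidual and implantation genes 0 passed (4 higher and 4 lower at an unadjusted p under 0.05). Stat3, the transcription factor that relays leukaemia inhibitory factor, came nearest, at 8.17, 8.28 and 8.29 against 8.58, 8.70 and 8.80 (-0.45, adjusted p = 0.0663; -0.40 and 0.0365 without control 43). Msx1, a homeobox gene of uterine epithelium that falls at implantation, measured 7.74, 7.61 and 7.53 against 8.95, 8.47 and 8.75 (-1.10, 0.174), and Itgb1, an integrin subunit, differed by 0.34 (0.182). Uterine identity genes Emx2 and Hoxa11 differed by -0.31 and -0.57 (adjusted p = 0.241 and 0.450).

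In the VEGF system, the family of vessel growth factors and receptors named in the title, 0 of 15 tested members passed (1 higher and 3 lower at an unadjusted p under 0.05), and the median was -0.28 with control 43 and 0.043 without it. The ligand Vegfa measured 6.997, 7.10 and 7.14 in treatments 31, 32 and 33 and 6.86, 6.76 and 7.30 in controls 41, 42 and 43, with overlapping groups (0.11, SE 0.14, adjusted p = 0.744). Vegfb, a ligand of the receptor VEGFR1, measured 7.08, 7.02 and 7.18 against 6.05, 6.76 and 6.87 (0.53, 0.241), all treatment arrays above all controls. Vegfc, the lymphatic ligand, differed by -0.31 and Pgf, placental growth factor, by 0.18 (adjusted p = 0.383 and 0.691). Nrp2, a co-receptor of the family, measured 6.86, 6.85 and 6.77 against 7.59, 7.73 and 7.27, below every control (-0.71, SE 0.12, adjusted p = 0.0568), and passed without control 43 (-0.84, adjusted p = 0.00358). Nrp1, its relative, measured 6.61, 5.66 and 6.11 against 6.62, 6.62 and 7.66 (-0.84, 0.238). The receptor genes Kdr, at 7.21, 6.13 and 6.91 against 6.77, 6.64 and 7.66 (-0.28), and Flt1, at 5.45, 5.14 and 5.38 against 5.23, 5.12 and 5.63 (-0.005), overlapped between groups, and neither kept its sign when treatment 32 or control 43 was left out. Without treatment 32 they were 0.037 and 0.086, and without control 43 they were 0.04 and 0.15. Vegfd and Flt4 were below the filter and not tested.

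Endothelial markers stood apart in 1 treatment array. Their score was -0.87 in treatment 32, 0.02 in treatment 31 and -0.03 in treatment 33, against -0.22, -0.18 and 0.54 in controls 41, 42 and 43. All 7 tested of 8 listed had a negative difference, where 57.8% of all genes did, and 0 passed. Tek, the angiopoietin receptor, measured 7.66, 6.34 and 7.59 against 7.47, 7.32 and 8.16, Pecam1 7.22, 6.02 and 7.11 against 6.99, 6.96 and 7.36 and Tie1 5.80, 4.90 and 5.82 against 5.70, 5.81 and 6.66. Vwf, von Willebrand factor, differed by -0.51 (adjusted p = 0.228). Pecam1 differed by -0.32 and by 0.063 without treatment 32. The part of endothelial content in the VEGF system values was not tested.

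Immune lists had no call. Interferon response and MHC class I genes had 19 negative differences of 21, where 57.8% of all genes were negative, and a median of -0.52, against -0.037. None passed, 0 were higher and 6 lower at an unadjusted p under 0.05 (10.8% of all genes were lower), and 7 passed as lower without control 43 (5.08% of all genes). Cxcl10, a chemokine induced by interferon, measured 4.94, 5.09 and 5.14 against 5.62, 5.48 and 5.61 (-0.52, adjusted p = 0.124), and Stat2, Ifit2 and Gbp2 differed by -0.58, -0.76 and -0.60. Macrophage and MHC class II genes had 14 negative of 16 and a median of -0.49 (0 passed and 0 had an unadjusted p under 0.05), with Lyz2 at -1.16 and Fcgr3a at -1.05. Of 17 chemokine genes 0 passed, with Cxcl14 at -2.12, Ccl6 at -1.58 and Ccl11 at -1.66 (4 lower at an unadjusted p under 0.05).

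Smooth muscle markers, all 9 tested, had positive differences, where 42.2% of all genes did. Their median was 0.42 and 0 passed (4 higher at an unadjusted p under 0.05). Des, desmin, measured 11.58, 11.60 and 11.07 against 10.42, 11.05 and 10.30 (0.83, adjusted p = 0.128), and Smtn, Actg2 and Tagln differed by 0.68, 0.56 and 0.42. Control 41 had the lowest score, -0.78, against -0.09 in both other controls and -0.06 to 0.26 in treatment arrays. Neither stress list had a call: the heat shock gene Hsph1 differed by -0.76 and Hspb1 by 0.86 (adjusted p = 0.124 and 0.184), and the endoplasmic reticulum gene Herpud1 by -0.45 (0.183). Cholesterol and fatty acid synthesis genes had 14 negative of 16, where 57.8% of all genes were negative. None passed, among them Fasn (-0.52) and Idi1 (-0.79). Adipoq, made by fat cells, measured 6.25, 7.70 and 5.31 in treatment and 8.88, 8.62 and 4.97 in control arrays, a spread within both groups that exceeded their difference of -1.07 (adjusted p = 0.628).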

How the data were processed

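Total RNA of rat uterus was biotin-labelled and hybridised to Affymetrix rat arrays, 1 per sample. The deposited values are normalized intensities of 31099 probe sets on a linear scale, made with MAS5 per the submitters' processing notes, which give no settings. No detection calls were used. From the deposited intensity values, log2(intensity + 16) was computed here. Controls (57 probe sets) were left out, and of the other 31042 the platform annotation gave 1 symbol for 20826, several for 436 and none for 9780 (20758 matched to a RefSeq table). Probe sets at or above the 40th percentile of their array in at least 3 of 9 arrays were kept, and the brightest with 1 symbol stood for its gene. Limma 3.58.1 in R 4.3.3 (lmFit, eBayes with a trend in the variance and 6 residual degrees of freedom; two-sided tests) was fitted to all 9 arrays and tested on simulated data. Whether arrays came from separate animals is not stated, so p-values measure the spread between arrays. Members and lists were chosen with earlier results of these data known. Named were the genes that passed, with values per array for the 15 largest in each direction, the members of lists that passed or had the 4 smallest p, 13 genes of VEGF and hormone signalling, and the 15 largest in each direction that passed only without control 43. Figures used matplotlib 3.10.9 and Python 3.11.15.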

Additional observations from a re-analysis of the deposited data

Results flagged for a closer look

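Ddit3, a transcription factor gene of the stress response, lay below every control in the treatment arrays and above every control in the model arrays. Its log2 levels were 5.73, 5.55 and 5.81 in treatment, 6.04, 5.97 and 6.06 in control and 6.15, 6.49 and 6.50 in model arrays, with differences from control of -0.32 in treatment (adjusted p = 0.223, limma) and 0.36 in model. The direct test of treatment against model gave -0.68 (SE 0.11, adjusted p = 0.286), so the difference did not pass. In all, 52 of 10973 genes had such opposite shifts without overlap.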

How the results depend on the processing

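None of the 56 genes changed direction in any of the fits. Their groups did not overlap, so fits that left out an array or changed the added constant could not turn a sign. Array weights estimated gene by gene, lowest for control 43 (0.255), gave 1277 genes (376 higher, 901 lower), and an adjusted p under 0.1 gave 164 (59 higher, 105 lower). An adjusted p under 0.05 together with an absolute log2 fold change above 1 left 27 (13 higher, 14 lower). A replicate block made from the final digits of the array numbers gave 27 (16 higher, 11 lower), 19 of them among the 56. Deviations from the group means correlated at r = -0.380, 0.311 and 0.127 between treatment and control arrays ending in the same digit. Between arrays ending in different digits r ran from -0.390 to 0.398. With so few arrays a group, these values cannot decide whether the digit marks a pairing. The 6 compared arrays alone gave 52 (27 higher, 25 lower), 26 of them among the 56. With each array left out in turn the counts were 0 to 720 genes in all, 0 to 163 higher and 0 to 557 lower, and 0 to 3 in treatment against model, with 3 only without model 23. Other scalings, filters, pseudocounts, trends and treatments of probe sets gave 48 to 61. Signs turned for Flt1 with 1 added (0.001) or with array weights (0.176) and for Kdr with array weights (0.114). With arrays left out Flt1 ran from -0.109 to 0.146, Kdr from -0.505 to 0.043, Pecam1 from -0.536 to 0.063, Pgr from -0.156 to 0.370 and Vegfa from -0.001 to 0.269. The causes were not tested. The number of arrays limits the precision, and dim genes have uncertain sizes.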
